A study of Homo sapiens with 95 samples.

Results

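The 39 protein-coding genes of the 4 human HOX clusters were examined in AALE cells. They were chosen by name, as every gene symbol made of HOX, the cluster letter A, B, C or D and a number, and they make up 39 of the 27978 genes listed in the count data. The HOXA cluster contributed 11 genes, HOXB 10, HOXC 9 and HOXD 9. The readthrough transcript HOXA10-HOXA9 is listed apart from them and had 0 reads.

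HOX genes encode homeodomain transcription factors that lie side by side in 4 clusters, in an order that matches where along the head-to-tail axis of the embryo they are used. Genes at the 3′ end of a cluster, with low numbers, act nearer the head and respond to retinoic acid, while those at the 5′ end, with high numbers, act nearer the tail. Polycomb proteins keep unused clusters silent, MLL proteins keep used ones active, and PBX and MEIS proteins bind DNA together with HOX proteins. Adult lung and airway cells are known to keep a regional HOX pattern, mainly of HOXA and HOXB genes.

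AALE is an immortalized human bronchial epithelial cell line, profiled here by sparse full length sequencing (SFL), a multiplexed RNA-seq of ribosome-depleted RNA at low depth. The 95 samples covered 8 lines under 4 treatments. The FAT1 and CDKN2A lines carried CRISPR knockouts of those genes and had as control the GFP line, which had received a Cas9-EGFP plasmid with no guide RNA. The NRF2 (gene NFE2L2), FGFR1, NRG1 and PIK3CA lines overexpressed those genes and had as control the HCRED line, which carried a vector for the HcRed fluorescent protein. Each line was exposed to the vehicle DMSO, to 24 μg/ml cigarette smoke condensate (CSC), to 173 μM benzo[a]pyrene (BaP, a polycyclic hydrocarbon of smoke) or to 490 μM NNK (a tobacco nitrosamine). Of the 32 combinations, 31 had 3 samples and FGFR1 with CSC had 2. Each genotype was a single line, so the perturbation and the line cannot be told apart, and the study calls the samples of a combination biological replicates without saying whether they came from separate cultures, so p-values measure only the spread between these samples.

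The libraries held between 287446 and 2116383 counted reads, with a median of 934235, and no pair was identical. Levels are given as CPM, the usual depth-scaled unit (a gene's share of the counted reads of its sample times 1000000), with SD over samples. Each targeted gene moved as labelled, with no overlap between a line and its control. FAT1 was at 104 ± 17.1 CPM in its line against 366 ± 58.2 in GFP (n = 12 each), CDKN2A at 49.4 ± 10.1 against 106 ± 20.5, and the overexpressed genes were between 507 ± 40.4 CPM (PIK3CA) and 5710 ± 710 CPM (NRG1). All 10 basal epithelial markers had a mean count of 10 or more, and the basal keratin KRT5 had 865 to 5898 reads per sample. Of the 4 airway lineage markers only FOXA1 reached that mean count, with 1717 reads in all against 270 of FOXA2, 20 of SOX2 and 2 of NKX2-1. Of the 7 fibroblast markers only COL1A1 reached a mean count of 10, COL1A2 and COL3A1 had at most 3 and 2 reads in any sample, and the summed list had line means from 15 (PIK3CA) to 43.2 CPM (CDKN2A). None of the endothelial, leukocyte or neuronal markers reached that mean count, and CD3E was at 0.

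HOX genes were expressed at low levels throughout. They gathered 2828 reads over all samples, or 31.6 CPM when pooled, and a sample held 2 to 85 of them with a median of 25. Reads fell on 2 to 19 different members per sample, with a median of 11. No member reached a mean count of 10, whereas 44.2% of the 22764 genes with any read did. The mean count was between 1 and 10 in 10 members, below 1 in 27, and HOXB1 and HOXD12 had no read in any sample. Because this is bulk RNA, fewer cells that express a gene and less RNA per cell cannot be told apart.

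The reads were unevenly divided among the clusters. HOXA genes took 50.1% of them (1416 reads, 15.7 ± 8.87 CPM per sample, n = 95) and HOXC genes 40.5% (1145 reads, 12.9 ± 6.96 CPM). HOXB genes took 8.84% (250 reads) and were at 0 in 30 samples, and HOXD genes took 0.601% (17 reads) and were at 0 in 82 samples. HOXA and HOXC were thus seen in nearly every library, at 0 in 1 and 2 samples respectively, while HOXD was close to undetected.

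Per kilobase of exon, HOXC13 was among the most abundant members at 2.42 ± 1.5 CPM per kb. HOXC13 lies at the 5′ end of its cluster and is known for hair and nail keratinocytes. It had at least 1 read in 93 of the 95 samples. Below it came HOXC9 (1.38 ± 1.21), HOXB7 (1.07 ± 1.38) and HOXA3 (0.826 ± 1.01), and then by HOXA5, HOXC6, HOXA4, HOXA2 and HOXA10 between 0.644 and 0.445 CPM per kb. Neighbours in this order lay within each other's SD.

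The low members were not evenly placed along the chromosome. In HOXA, HOXA6, HOXA7, HOXA9, HOXA11 and HOXA13 lay below a mean count of 1 with 2 to 24 reads each, so HOXA10 (149 reads in 56 samples) stood between poorly counted neighbours. In HOXB, HOXB7 (146 reads) held most of the cluster's 250 reads, followed by HOXB6 (32), HOXB3 (21) and HOXB2 (17). In HOXC, HOXC8 (88 reads) was just below a mean count of 1, and HOXC11 (50), HOXC5 (35), HOXC10 (29), HOXC4 (18) and HOXC12 (6) were lower. In HOXD no member had over 5 reads.

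**Figure D1:**
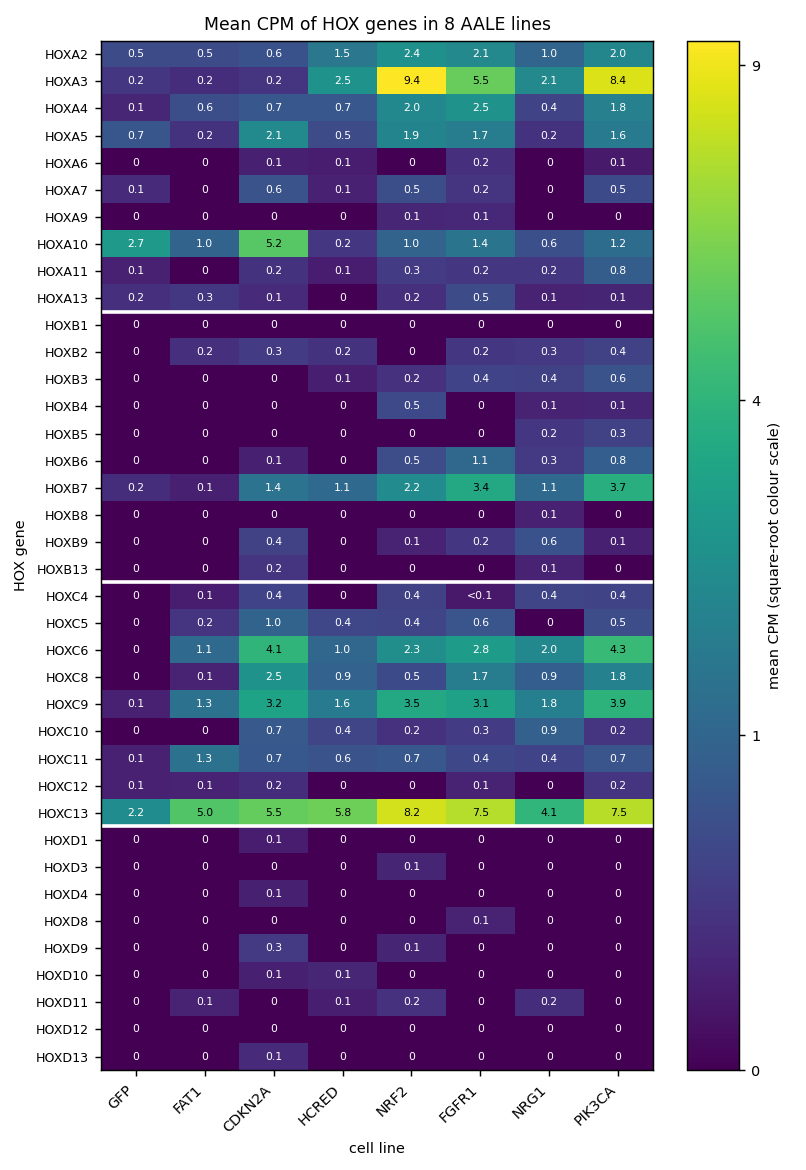
Mean CPM of HOX genes (rows, in cluster order, white lines between clusters) in the 8 lines (columns; 12 samples each, FGFR1 11), on a square-root colour scale with the mean printed in each cell. HOXC13 was above 2 CPM in every line, HOXA3 was near 0.2 CPM in the GFP, FAT1 and CDKN2A lines, HOXC6 was at 0 in GFP, and HOXD was at or near 0 throughout.

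Reads of neighbouring members are partly shared in the annotation. In the GRCh37 gene models, HOXA3 lies at chr7:27145803-27192202 and HOXA10 at chr7:27210224-27219880, both on the minus strand. Of HOXA3's exonic bases 17.3% are shared with HOXA-AS2 or HOXA-AS3, and of HOXA10's 16.4% with HOXA10-AS. HOXC6 (chr12:54384408-54424607, plus strand) shares 16.1% of its exonic bases with HOXC4, HOXC9 or HOXC-AS2, and HOXC9 (chr12:54388679-54397121) shares 9.8%. HOXB7 (chr17:46684594-46710934) shares none, and HOXC13 (chr12:54332615-54340328) shares 7.3% with HOXC13-AS. Whether counting used strand is not given in the sources used here, so reads of these genes and of their antisense partners cannot be told apart. Nor is it given how reads in any exons shared with the readthrough transcript HOXA10-HOXA9 were counted, which limits what the counts of HOXA9 and HOXA10 show.

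HOXA3 and HOXA10, which lie in 1 cluster and differed between the control lines in opposite directions, are shown by the bases before their annotated starts. The RefSeq promoter table (GRCh38.p14, minus strand) gave 7 starts for HOXA3 and 2 for HOXA10, and the windows below are the 250 bases before the only HOXA3 start with a match and before both HOXA10 starts, at chr7:27152584-27152833, chr7:27179862-27180111 and chr7:27174321-27174570. Capitals mark the letters of a CCAAT box, GCCAAT or, on the other strand, ATTGGC.
HOXA3: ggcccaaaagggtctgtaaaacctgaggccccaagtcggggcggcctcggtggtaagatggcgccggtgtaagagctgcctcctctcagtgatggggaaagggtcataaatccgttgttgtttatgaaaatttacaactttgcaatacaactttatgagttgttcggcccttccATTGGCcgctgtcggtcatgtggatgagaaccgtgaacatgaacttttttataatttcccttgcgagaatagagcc
HOXA10, upstream start: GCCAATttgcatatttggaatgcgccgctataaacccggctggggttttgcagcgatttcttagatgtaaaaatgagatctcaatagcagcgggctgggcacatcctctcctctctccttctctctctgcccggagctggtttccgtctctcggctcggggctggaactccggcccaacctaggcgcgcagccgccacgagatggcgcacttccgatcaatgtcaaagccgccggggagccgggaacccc
HOXA10, downstream start: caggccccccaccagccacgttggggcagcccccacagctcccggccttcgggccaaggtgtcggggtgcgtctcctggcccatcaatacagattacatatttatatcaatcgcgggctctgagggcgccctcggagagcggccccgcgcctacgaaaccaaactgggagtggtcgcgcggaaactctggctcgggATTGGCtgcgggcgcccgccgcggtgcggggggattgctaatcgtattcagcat
These letters were in 16 of the 27 windows of the 20 HOX genes with an entry, and in 13.8% of all 35116 windows. Of the 8 HOXD windows, from a nearly silent cluster, 5 held them. The motif was chosen after the windows were read, and gene counts do not show which start was used.

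The 2 control lines differed from each other in their HOX pattern. HOXA3, which patterns pharyngeal arch organs, was lower in GFP than in HCRED, HOXA10, known for the uterus and limb, was higher, and HOXC13 was lower. HOXA3 had 2 reads over the 12 GFP samples (0, 0 and 1.91 CPM as lowest, median and highest) and 29 reads over the 12 HCRED samples (0, 1.75 and 6.96 CPM). HOXA10 had 26 reads in GFP (0, 2.79 and 5.74 CPM) and 4 in HCRED (0, 0 and 2.08 CPM). Most GFP samples held no HOXA3 read and most HCRED samples no HOXA10 read, but the ranges overlapped for both. The GFP reads of HOXA10 numbered 2 with DMSO, 9 with CSC, 9 with BaP and 6 with NNK, and those of HCRED 0, 3, 1 and 0, so that it did not reach the filter with DMSO alone.

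Differences were tested by limma-voom on genes averaging over 1 count in the compared samples, with Benjamini-Hochberg adjusted p under 0.05 as the threshold. GFP minus HCRED was +2.0 ± 0.41 on the log2 scale for HOXA10 (SE, limma-voom adjusted p = 2.77e-05). It was −1.52 ± 0.47 for HOXA3 (limma-voom adjusted p = 0.00523) and −1.13 ± 0.33 for HOXC13 (limma-voom adjusted p = 0.00306). HOXA2, a hindbrain and branchial arch gene, had 6 reads against 20 and fell by 1.21 ± 0.41 (limma-voom adjusted p = 0.0116). The voom scale shrinks the difference of such low counts. The pooled ratio of GFP to HCRED was 0.0762 for HOXA3, with a 95% exact counting interval of 0.00881 to 0.301, and intervals of this kind cover counting error only.

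In all, 4 of the 5 members tested passed the threshold, against 45.0% of all 14186 genes tested between these lines. HOXA3, HOXA2 and HOXA10 reached the filter through the line where they were higher, so nothing is read from this count. Under edgeR's quasi-likelihood test on all genes with a read, added after the counts were seen to reach the members below the filter, 7 of 23 passed, against 30.8% of genes. The 4 that it added were HOXC5, HOXC6, HOXC8 and HOXC9. GFP had 0 reads of HOXC6 against 14 in HCRED, which is at least 4.22-fold lower taking 3 counts over the group as the floor (edgeR adjusted p = 0.00107), 0 of HOXC8 against 10, 0 of HOXC5 against 6 and 1 of HOXC9 against 17. HOXA10 held under all 12 alternatives, HOXA3 under 11 of 12 and HOXC13 under 12 of 13, while HOXA2 held under 8 of 12 and was lost with DESeq2 (adjusted p = 0.065). Without replicate 2 only HOXA10 and HOXC13 were called.

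**Figure D2:**
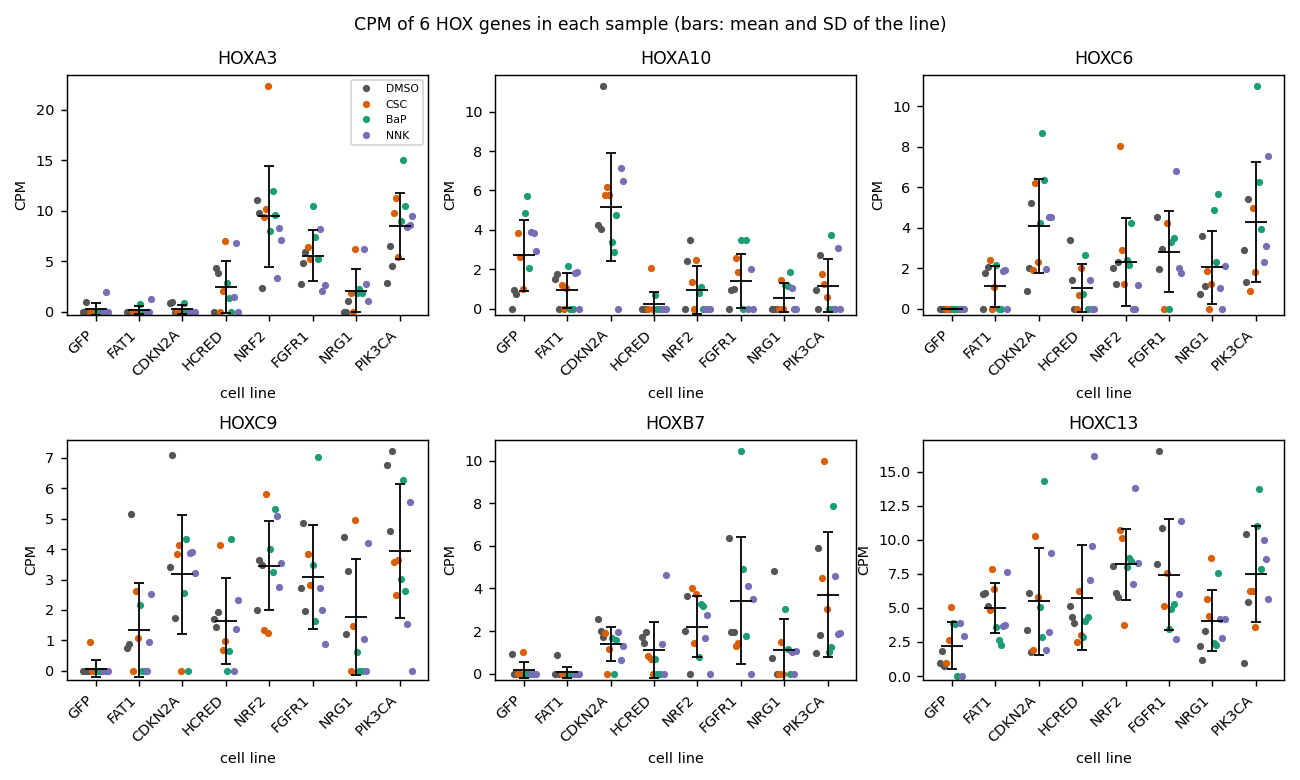
CPM of HOXA3, HOXA10, HOXC6, HOXC9, HOXB7 and HOXC13 in every sample (points, coloured by treatment) of the 8 lines, with bars for the mean and SD of the line (n = 12, FGFR1 11); each panel has its own linear axis. HOXC6 was at 0 in all 12 GFP samples and counted in all 12 CDKN2A samples, and HOXA3 rose above 10 CPM in some NRF2, FGFR1 and PIK3CA samples but in no GFP, FAT1, CDKN2A or HCRED sample.

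The CDKN2A line, a knockout of a cell-cycle inhibitor locus, was compared with GFP. HOXC6, HOXC9 and HOXC13 were higher in the knockout line, as were HOXA5 and HOXA10. HOXC6, a trunk patterning gene, had 45 reads in CDKN2A (0.852, 4.38 and 8.66 CPM as lowest, median and highest of 12 samples) and 0 in GFP. Every CDKN2A sample held a HOXC6 read and no GFP sample did, so the lines did not overlap, as was so for 8.94% of all genes tested. The difference was at least 14.2-fold over the floor of 3 counts, and the fitted +2.71 ± 0.37 on the voom log2 scale (limma-voom adjusted p = 3.7e-09) depends on the small offset that voom adds to counts of 0.

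HOXC9, a thoracic patterning gene, had 36 reads in CDKN2A (0, 3.62 and 7.08 CPM) against 1 in GFP (0, 0 and 0.960 CPM). The difference was +2.16 ± 0.42 (limma-voom adjusted p = 9.43e-06), and 10 CDKN2A samples against 1 GFP sample held a read. HOXA10 had 63 reads (0, 5.26 and 11.3 CPM) against 26 (0, 2.79 and 5.74 CPM), and +0.94 ± 0.35 (limma-voom adjusted p = 0.0181). HOXA10 was at 5.16 ± 2.73 CPM in CDKN2A, the highest mean of the 8 lines, although its samples overlapped those of GFP.

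HOXA5, which is required for lung and trachea development in mice, had 24 reads in CDKN2A (0, 2.13 and 4.26 CPM) against 7 in GFP (0, 0 and 2.58 CPM), a difference of +1.11 ± 0.41 (limma-voom adjusted p = 0.0167). HOXC13 had 60 reads against 24, with a difference of +1.07 ± 0.35 (limma-voom adjusted p = 0.00623). Samples of the lines overlapped for both.

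All 6 members tested passed and were higher, against 57.6% of 14383 genes that passed in either direction and 29.4% that were higher. The filter on mean count was passed by HOXC6, HOXC9 and HOXA5 through the CDKN2A samples alone, so nothing is read from this count. Under edgeR on all genes with a read, 11 of 29 passed, all higher, against 40.3% of genes in either direction. It added HOXC8 (24 reads against 0, at least 7.56-fold, edgeR adjusted p = 2.34e-06), HOXC5 (11 against 0), HOXC10 (7 against 0), HOXC11 (9 against 1) and HOXB7 (16 against 2). HOXC6 and HOXC9 held under all 13 alternatives. HOXA10 held under 12 of 13, HOXC13 under 11 of 13 and HOXA5 under 8 of 12. HOXA10, HOXA5 and HOXC13 were lost without replicate 3, HOXA5 also without replicate 2, and HOXA5 did not reach the filter without replicate 1.

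These differences were measured against GFP, where HOXC was low. HOXC summed to 2.47 ± 1.76 CPM in GFP, 18.1 ± 5.75 in CDKN2A and 10.8 ± 4.61 in HCRED, the other control line. HOXC6 was at 1.03 ± 1.17 CPM in HCRED, between GFP and CDKN2A, and so was HOXC9 at 1.63 ± 1.41. HOXC13 was at 5.76 ± 3.86 CPM in HCRED and 5.48 ± 3.93 in CDKN2A, so it was higher in CDKN2A than in GFP only. HOXA3, by contrast, had 2, 2 and 3 reads in GFP, FAT1 and CDKN2A, and its mean was between 0.166 and 0.237 CPM in these lines.

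The FAT1 line, a knockout of an atypical cadherin, was also compared with GFP. HOXC13 was higher and HOXA10 lower. HOXC13 had 55 reads in FAT1 (2.30, 5.0 and 7.86 CPM) against 24 in GFP (0, 2.25 and 5.06 CPM), a difference of +1.21 ± 0.32 (limma-voom adjusted p = 0.00116). HOXA10 had 12 reads (0, 1.14 and 2.17 CPM) against 26 and fell by 0.99 ± 0.39 (limma-voom adjusted p = 0.0293). The FAT1 and GFP samples overlapped for both genes. With DMSO the order of HOXA10 was the other way round, with 4 reads in FAT1 and 2 in GFP, too few to be tested with DMSO alone.

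Only 3 of the 39 members passed the filter, and all 3 passed the threshold, against 48.9% of 14021 genes. HOXA10 reached the filter through the GFP samples, so nothing is read from this count. HOXC13 held under all 13 alternatives and HOXA10 under 5 of 12. HOXA10 was lost without replicate 2 or 3 and with edgeR (adjusted p = 0.068) and DESeq2 (adjusted p = 0.0924). With edgeR on all genes with a read, 4 of 20 members passed, against 33.5% of genes. They were HOXC13 with HOXC6 (13 reads against 0, at least 4.38-fold, edgeR adjusted p = 0.000959), HOXC9 (16 against 1) and HOXC11 (12 against 1), all higher. HOXC8 had 1 read in FAT1 and 24 in CDKN2A, and HOXC10 0 and 7, but the knockout lines were not tested against each other. Both comparisons share the GFP samples, and the knockout lines were not tested against HCRED. HOXC13 was at 5.0 ± 1.84 CPM in FAT1 and 5.76 ± 3.86 in HCRED, HOXC6 at 1.1 ± 1.02 and 1.03 ± 1.17, and HOXC9 at 1.34 ± 1.54 and 1.63 ± 1.41. HOXC11 was higher in FAT1, at 1.33 ± 1.64 against 0.615 ± 0.884 CPM. Summed HOXC was at 9.24 ± 3.29 CPM in FAT1 and 10.8 ± 4.61 in HCRED.

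**Figure D3:**
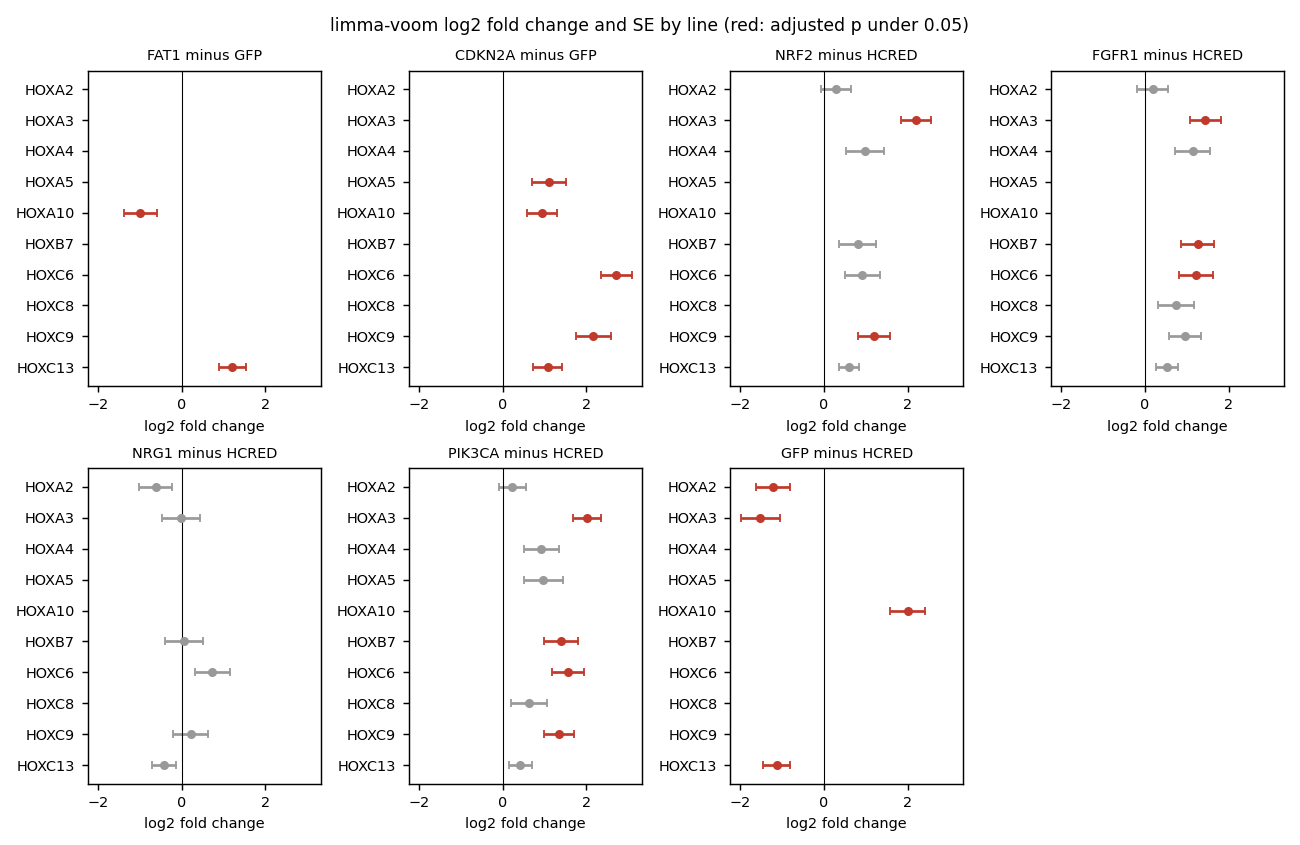
limma-voom log2 fold change (points) with SE (bars) of HOX genes in the 7 line comparisons, red where the adjusted p was under 0.05; a gene with no point was not tested because its mean count was 1 or lower in those samples. HOXA3 was called higher in NRF2, FGFR1 and PIK3CA and lower in GFP, all against HCRED, and no member was called in NRG1.

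Of the overexpressing lines, NRF2, FGFR1 and PIK3CA had higher HOXA3 than HCRED. The comparisons of the 4 overexpressing lines and of GFP with HCRED share the HCRED samples. NRF2, the gene NFE2L2, encodes a regulator of the antioxidant response. HOXA3 had 97 reads in the NRF2 line (2.31, 9.47 and 22.4 CPM as lowest, median and highest of 12) against 29 in HCRED (0, 1.75 and 6.96 CPM). All 12 NRF2 samples held a read, 4 HCRED samples held none, and the ranges overlapped. The difference was +2.20 ± 0.36 (limma-voom adjusted p = 1.93e-06), and the pooled ratio was 3.87 with a counting interval of 2.53 to 6.08.

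HOXC9 had 35 reads in NRF2 (1.24, 3.51 and 5.81 CPM) against 17 in HCRED (0, 1.40 and 4.34 CPM), a difference of +1.20 ± 0.38 (limma-voom adjusted p = 0.0138). These 2 were the members that passed of 8 tested, both higher, against 21.6% of 14242 genes in either direction and 10.4% higher. HOXA4 and HOXB7, which were tested and did not pass, reached the filter through the NRF2 samples. HOXA3 held under 12 of 13 alternatives and HOXC9 under 8, HOXC9 being lost with DESeq2 (adjusted p = 0.069) and without replicate 1 or 2. With replicate 3 left out 4 members passed, HOXA5 and HOXC13 being added. With edgeR on all genes with a read 2 of 29 passed, against 14.1% of genes, namely HOXA3 and HOXA5 (19 reads against 5). HOXC9 did not pass in that fit (edgeR adjusted p = 0.0627).

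The FGFR1 line overexpressed a fibroblast growth factor receptor. HOXA3 had 55 reads there (2.01, 5.26 and 10.4 CPM, n = 11), a difference from HCRED of +1.44 ± 0.37 (limma-voom adjusted p = 0.00348). HOXB7, a trunk patterning gene, had 32 reads (0, 1.97 and 10.4 CPM) against 11 (0, 0.768 and 4.63 CPM), and +1.26 ± 0.40 (limma-voom adjusted p = 0.0259). HOXC6 had 33 reads (0, 2.96 and 6.82 CPM) against 14 (0, 0.703 and 3.41 CPM), and +1.22 ± 0.41 (limma-voom adjusted p = 0.0328). All 11 FGFR1 samples held a HOXA3 read, and the ranges of FGFR1 and HCRED overlapped for the 3 genes.

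In FGFR1 3 of 9 members passed, all higher, against 13.5% of 14347 genes in either direction and 7.25% higher. HOXB7, HOXA4 and HOXC8 (11, 8 and 10 reads in the 12 HCRED samples) reached the filter through the FGFR1 samples, so nothing is read from this count. The calls held under 10 (HOXA3), 10 (HOXB7) and 6 (HOXC6) of 13 alternatives. All 3 calls were lost without replicate 1, HOXC6 also without replicate 3 and HOXB7 without replicate 2, while HOXA4 was added without replicate 3. DESeq2 called HOXB7 alone. With edgeR on all genes with a read 3 of 28 passed, against 8.86% of genes. They were HOXA3, HOXB7 and HOXB6, the neighbour of HOXB7, which had 11 reads against 0 and was at least 4.12-fold higher (edgeR adjusted p = 0.0057).

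The PIK3CA line overexpressed the catalytic subunit of phosphoinositide 3-kinase. HOXA3 had 106 reads (2.89, 8.81 and 15 CPM) against 29 in HCRED, a difference of +2.01 ± 0.34 (limma-voom adjusted p = 1.95e-06). HOXC6 had 50 reads (0.894, 3.50 and 11 CPM) against 14, and +1.56 ± 0.38 (limma-voom adjusted p = 0.000965). HOXB7 had 48 reads (0.964, 2.46 and 9.99 CPM) against 11, and +1.39 ± 0.40 (limma-voom adjusted p = 0.00499). Every PIK3CA sample held a read of each of these 3 genes, and HCRED samples without one numbered 4, 5 and 4.

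HOXC9 had 55 reads in PIK3CA (0, 3.6 and 7.21 CPM) against 17, and +1.35 ± 0.36 (limma-voom adjusted p = 0.00209). In all 5 of 10 members passed, all higher, against 27.8% of 14391 genes in either direction and 14.0% higher. HOXB7, HOXA4, HOXA5 and HOXC8 reached the filter through the PIK3CA samples, so nothing is read from this count either. HOXA3 and HOXC6 held under 12 of 13 alternatives, and HOXB7 and HOXC9 under 11. Without replicate 2 HOXA3 and HOXC6 alone were called. With edgeR on all genes with a read 8 of 28 passed, against 18.6% of genes, which added HOXA5 (22 reads against 5), HOXA11 (11 against 1) and HOXB6 (9 against 0).

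NRG1, a ligand of ERBB receptors, was raised to the highest level of the overexpressed genes, and no HOX member of the 7 tested passed in its line by limma-voom, against 10.8% of 14210 genes. None had an unadjusted p under 0.05, and edgeR and DESeq2 called 0 as well. HOXA3 had 23 reads in NRG1 (0, 1.85 and 6.25 CPM) against 29 in HCRED, and HOXC6 23 (0, 1.56 and 5.66 CPM) against 14. Summed over the cluster, HOXA was at 8.45 ± 3.36 CPM in NRG1, 10.9 ± 4.54 in HCRED, 22.1 ± 3.42 in FGFR1, 24.9 ± 7.62 in PIK3CA and 26.3 ± 8.41 in NRF2. HOXB was at 3.09 ± 2.43 CPM in NRG1 and 1.39 ± 1.42 in HCRED, with 9 of its 10 members seen at least once in NRG1 and 3 in HCRED. In NRG1, however, HOXB4, HOXB8 and HOXB13 had 1 read each, and the 3 reads of HOXB5 came from 1 sample. The NRG1 line was not tested against the other overexpressing lines.

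Apart from HOXD, which was low in every line, HOXB was nearly silent in 2 lines. It had 2 reads in all GFP samples and 3 in all FAT1 samples, against 27 in CDKN2A, 15 in HCRED, 35 in NRG1, 37 in NRF2, 53 in FGFR1 and 78 in PIK3CA. It was at 0 in 10 of 12 GFP and 10 of 12 FAT1 samples, and in none of the PIK3CA samples. HOXD reads numbered 7 in CDKN2A, 4 in NRF2, 3 in HCRED and at most 1 elsewhere, which was too few to compare lines. At this depth 3 counts over a line amount to between 0.226 and 0.294 CPM.

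The chemicals were compared with DMSO over all 8 lines, with the line in the model, to ask what smoke constituents do to the transcriptome. By limma-voom 0 of 9 HOX members passed with CSC, 2 of 10 with BaP and 0 of 10 with NNK. The shares of all genes that passed were 55.6%, 51.4% and 51.7%. At the low counts of the members, small changes could have been missed. Summed HOXA reads were 368 with DMSO, 389 with CSC, 336 with BaP and 323 with NNK, or 14.4 ± 7.52, 17.8 ± 11.1, 16.3 ± 9.61 and 14.6 ± 6.86 CPM (n = 24, 23, 24 and 24). The line means, from 8.27 to 26.3 CPM, lay farther apart than the treatment means.

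With BaP, HOXA3 and HOXC6 were higher than with DMSO. HOXA3 had 88 reads with BaP (0, 1.86 and 15 CPM as lowest, median and highest of 24 samples) against 64 with DMSO (0, 1.05 and 11.1 CPM), a difference of +0.74 ± 0.22 (limma-voom adjusted p = 0.00327). HOXC6 had 70 reads (0, 2.54 and 11 CPM) against 49 (0, 1.84 and 5.41 CPM), and +0.76 ± 0.24 (limma-voom adjusted p = 0.00564). The treatments overlapped for both, and 8 BaP samples held no HOXA3 read and 7 no HOXC6 read. By line, HOXC6 had 19 reads with BaP and 11 with DMSO in PIK3CA, 15 and 9 in CDKN2A, 13 and 5 in NRG1 and 9 and 5 in NRF2, while HCRED had 5 and 5, FAT1 3 and 4, FGFR1 6 and 10 and GFP 0 and 0.

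Of 10 members tested with BaP 2 passed, against 51.4% of 14392 genes in either direction and 26.4% higher. HOXA3 held under 8 of 13 alternatives and HOXC6 under 10 of 12. Both were lost without replicate 1, HOXC6 also without replicate 2, and HOXA3 with DESeq2 (adjusted p = 0.0516) and after exon length and GC content were corrected for (adjusted p = 0.0863). In the control lines alone HOXA3 differed by 0.14 (limma-voom adjusted p = 0.911). With edgeR on all genes with a read 3 of 32 members passed, against 33.2% of genes, namely HOXC6, HOXC11 (18 reads against 7) and HOXB9 (9 reads in 6 samples against 0).

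With CSC no member of 9 passed by limma-voom, against 55.6% of 14497 genes. HOXA3 alone had an unadjusted p under 0.05, with 93 reads against 64 and +0.53 ± 0.25 (limma-voom adjusted p = 0.0593), and edgeR called it (adjusted p = 0.0487) whereas DESeq2 called none. Of the 93 reads, 18 came from 1 NRF2 sample. With CSC HOXA3 was called without replicate 2 and HOXA10 without replicate 3. HOXC9 had 47 reads with CSC against 75 with DMSO and was called lower with CSC and with BaP only after the GC and length correction. With NNK no member of 10 passed, against 51.7% of 14387 genes, none had an unadjusted p under 0.05, and edgeR and DESeq2 called 0, though HOXC13 was called without replicate 2. All 3 chemical comparisons share the DMSO samples.

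Whether lines responded differently to the chemicals was tested by 21 interaction terms at once. No member of 9 passed by limma-voom, against 2.48% of 14384 genes, none had an unadjusted p under 0.05, and edgeR and DESeq2 called 0. Counts of HOXA3 and HOXC6 were 0 to 18 per sample, so smaller differences in response were not detectable at this depth.

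**Figure D4:**
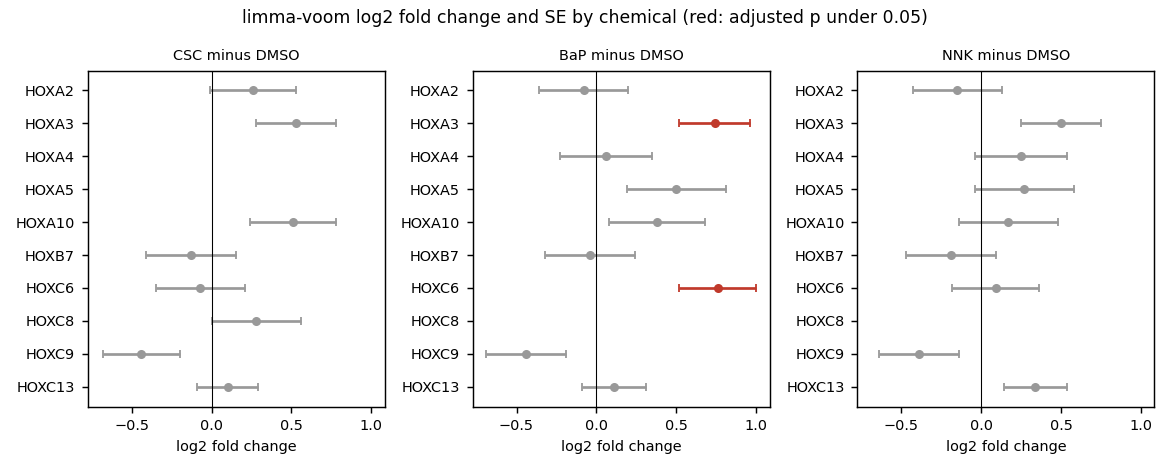
limma-voom log2 fold change (points) with SE (bars) of HOX genes for CSC, BaP and NNK against DMSO over all lines, red where the adjusted p was under 0.05; a gene with no point was not tested. HOXA3 (+0.74) and HOXC6 (+0.76) with BaP were the only calls.

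Of the 9 PBX, MEIS and PKNOX cofactors, which bind DNA with HOX proteins, 5 had a mean count of 10 or more and PBX2 had no counted read. The Polycomb gene RING1 and the retinoid gene RXRB had none either. Whether reads of PBX2, RING1 and RXRB were lost in alignment or counting was not tested, so their lack is not read as absent RNA. MEIS2, a partner of HOX proteins in limb and heart development, had its highest mean in GFP. It was at 32.4 ± 4.49 CPM there (n = 12), at 17 ± 4.26 in FAT1, 14.5 ± 4.36 in CDKN2A and 19.9 ± 5.84 in HCRED, and between 16.5 and 19.4 CPM in the overexpressing lines. It was lower in FAT1 (−0.92 ± 0.14, limma-voom adjusted p = 8.01e-08) and in CDKN2A (−1.19 ± 0.15, limma-voom adjusted p = 3.79e-10) than in GFP, and higher in GFP than in HCRED (+0.64 ± 0.13, limma-voom adjusted p = 4.51e-05).

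Other cofactors moved in both directions. Between GFP and HCRED, MEIS3 was lower by −2.04 ± 0.38 and MEIS1 by −0.54 ± 0.14 (limma-voom adjusted p = 4.8e-06 and 0.00108), while PBX3 was higher by 0.45 ± 0.09 (limma-voom adjusted p = 3.4e-05). MEIS1 was higher in NRF2 than in HCRED (+0.63 ± 0.12, limma-voom adjusted p = 2.93e-05) and lower in NRG1 (−0.51 ± 0.16, limma-voom adjusted p = 0.026).

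Among the genes beside the clusters, CBX5, which encodes heterochromatin protein HP1α and lies next to HOXC, had its lowest mean in GFP. It was at 241 ± 32.1 CPM in GFP, 665 ± 58.9 in FAT1, 577 ± 35.8 in CDKN2A, 633 ± 82.8 in HCRED and between 583 and 889 in the overexpressing lines. FAT1 minus GFP was +1.44 ± 0.05 and CDKN2A minus GFP +1.24 ± 0.05, and GFP minus HCRED was −1.37 ± 0.05 (limma-voom adjusted p = 8.54e-41, 2.62e-35 and 6.58e-43). The other tested genes on the HOXC side, SMUG1, HNRNPA1 and CALCOCO1, did not pass between GFP and HCRED (limma-voom adjusted p = 0.244, 0.0558 and 0.249). Of 11 tested neighbours 6, 6 and 3 passed in these comparisons, against 48.9%, 57.6% and 45.0% of all genes. SNX10, beside HOXA, was lower in FAT1 (−0.72 ± 0.14) and higher in CDKN2A (+1.14 ± 0.11).

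**Figure D5:**
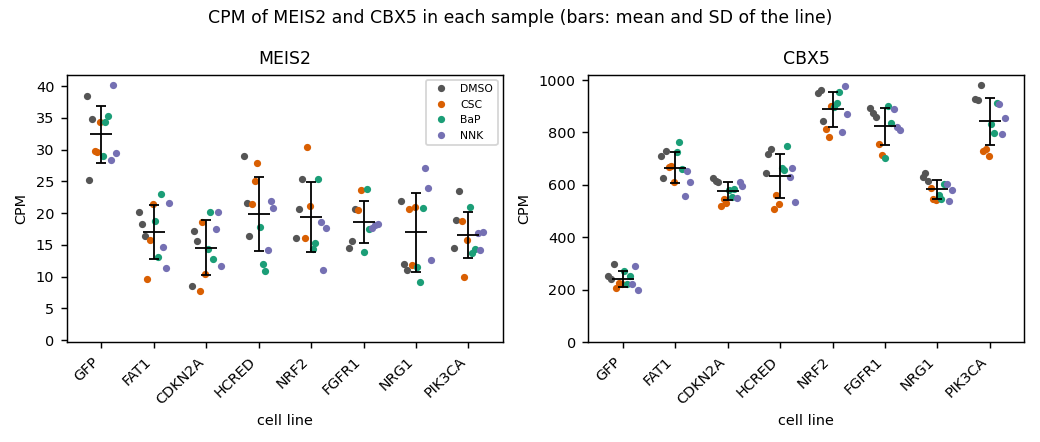
CPM of the HOX cofactor gene MEIS2 and of CBX5, which lies beside the HOXC cluster, in every sample (points, coloured by treatment) of the 8 lines, with bars for the mean and SD (n = 12, FGFR1 11). MEIS2 was at 32.4 CPM on average in GFP and at 19.9 CPM or less in the other lines, and CBX5 was at 241 CPM on average in GFP and at 577 CPM or more in the other lines.

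Noncoding RNAs of the clusters were mostly too low to test, 22 of 26 being listed and 8 at 0, HOTTIP among them. HOTAIRM1, of the HOXA cluster, was at 2.79 to 7.25 CPM and higher in PIK3CA than in HCRED (+0.79 ± 0.27, limma-voom adjusted p = 0.0183). HOXC13-AS was lower in GFP than in HCRED (−1.81 ± 0.42, limma-voom adjusted p = 0.000235) and higher in NRF2 (+0.95 ± 0.35, limma-voom adjusted p = 0.0365), and it shares exonic bases with HOXC13.

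Genes that set or remove the chromatin marks of HOX clusters were well counted, with 14 of 19 Polycomb genes and all 11 listed MLL and demethylase genes at a mean count of 10 or more. In CDKN2A against GFP 9 of 18 Polycomb genes passed, 5 higher and 4 lower. The methyltransferase EZH2 was lower by −1.0 ± 0.08 and its partner PHF19 by −1.27 ± 0.09 (limma-voom adjusted p = 7.35e-19 and 3.67e-20), while 8 of 18 passed in GFP against HCRED, all higher. The counts were 9 of 17 in FAT1, 6 of 17 in NRF2, 3 of 17 in FGFR1, 1 of 17 in NRG1 and 8 of 17 in PIK3CA. Of the MLL and demethylase genes 6, 7, 0, 2, 1, 5 and 9 of 11 passed in FAT1, CDKN2A, NRF2, FGFR1, NRG1, PIK3CA and GFP against HCRED. KDM6B, which removes the Polycomb mark, was higher in FAT1 (+0.77 ± 0.12) and lower in CDKN2A (−0.57 ± 0.15). Among all genes 48.9%, 57.6%, 21.6%, 13.5%, 10.8%, 27.8% and 45.0% passed in the same order. The median log2 fold change of the Polycomb genes was between −0.17 (PIK3CA) and 0.20 (GFP against HCRED), and that of all genes between −0.011 and 0.028.

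Of 10 retinoid genes tested 6, 6 and 6 were higher with CSC, BaP and NNK, and 0, 0 and 1 lower, where 55.6%, 51.4% and 51.7% of all genes passed in either direction. The differences had list medians of +0.48, +0.35 and +0.27 against −0.008, 0.011 and 0.0 for all genes. STRA6, the retinol uptake receptor, differed by +2.09 ± 0.24, +2.31 ± 0.21 and +1.32 ± 0.24 (limma-voom adjusted p = 6.54e-13, 4.01e-16 and 2.62e-06), and DHRS3, a retinaldehyde reductase, by +1.10 ± 0.11, +1.39 ± 0.10 and +0.61 ± 0.11. Between lines, retinoid genes passing numbered 6 of 10 in FAT1, 7 of 10 in CDKN2A, 3 of 10 in NRF2, 3 of 10 in FGFR1, 2 of 10 in NRG1, 4 of 9 in PIK3CA and 4 of 10 in GFP against HCRED. Polycomb genes passed in 12, 12 and 11 of 17 with CSC, BaP and NNK, and the neighbours of the clusters in 7 of 11 with each chemical, 0, 1 and 1 of them higher, beside the same 55.6%, 51.4% and 51.7% of all genes. Of members near the retinoid-responsive end of HOXA, HOXA2 differed by +0.26 ± 0.27 with CSC, −0.08 ± 0.28 with BaP and −0.15 ± 0.28 with NNK on the log2 scale. HOXA3 differed by +0.74 ± 0.22 with BaP and did not pass by limma-voom with CSC or NNK.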

How the data were processed

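SFL libraries of 95 AALE samples were analysed. The authors trimmed reads with cutadapt 1.12, checked them with FastQC 0.11.5, aligned them to hg19 with STAR 2.5.2b and counted them per RefSeq gene with featureCounts, and they deposited raw counts with no normalization, the only unit used. Groups came from the sample labels. In R 4.3.3, counts were scaled by TMM and compared with limma 3.58.1 on voom-transformed values, 2-sided, among genes with a mean count above 1. Line comparisons had treatment, and chemical comparisons had line, as a covariate. p-values were adjusted by Benjamini-Hochberg over all genes tested. edgeR 4.0.16, DESeq2 1.42.0, other scalings, filters and sample subsets were alternatives, and the edgeR fit without a filter was added after the counts were seen. Scripts were tested on simulated data. Exon lengths and GC content came from GENCODE models on GRCh37, matching 24309 of 27978 symbols. All 39 members were accounted for, and members past the threshold were named in each comparison, with up to 3 genes of a list by smallest adjusted p, further list genes being chosen after their values were seen. Some genes and the results that need them are not reported here. The members and lists were chosen with earlier results of these data known. Each library's 287446 to 2116383 reads limit precision at these low counts.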

Additional observations from a re-analysis of the deposited data

How the results depend on the processing

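No member had a mean count of 10, so a filter at that level left none to test. Direction was kept in the 319 alternative fits that could be made of the 25 called member fold changes, of which 252 stayed on the same side of the threshold and 67 lost it, 17 of these with DMSO-treated samples alone (21 fits). HOXA10 could not be tested with DMSO alone in FAT1, where its reads ran the other way, nor between GFP and HCRED. Numbers of members called are given next. FAT1 against GFP: 3, and 1 with DESeq2, with libraries of at least 500000 reads or with DMSO alone, 6 with no filter, and 1 to 2 with a replicate left out. CDKN2A: 6, and 11 with edgeR and no filter, 3 with DMSO alone, and 4 to 6. NRF2: 2, and 1 with DESeq2, 0 with DMSO alone, and 1 to 4. FGFR1: 3, and 1 with DESeq2, 6 with no filter, 0 with DMSO alone, and 0 to 3. PIK3CA: 5, and 8 with edgeR and no filter, 0 with DMSO alone, and 2 to 4. GFP against HCRED: 4, and 7 with no filter by voom or edgeR, 0 with DMSO alone, and 2 to 4. CSC: 0, and 1 with edgeR with or without the filter, with voom and no filter or after the GC and length correction, and 0 to 1. BaP: 2, and 1 with DESeq2, 12 with no filter, 0 in the control lines alone, and 0 to 2. NNK: 0, and 17 with no filter, and 0 to 1. The unfiltered voom fits called 32.7% (FAT1), 8.01% (FGFR1), 29.8% (GFP against HCRED), 37.9% (CSC), 46.7% (BaP) and 52.8% (NNK) of all genes. With NNK the 17 members called, of 34 tested, were all higher, as were 67.2% of all calls, and had 1 to 21 reads each. Without a filter edgeR called 0 members with NNK. Median library totals were 753702 with NNK and 1051107 with DMSO, and whether these totals played a part was not tested.

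With the replicate number as a block, members called were 3 (FAT1), 6 (CDKN2A), 2 (NRF2), 4 (FGFR1), 0 (NRG1), 5 (PIK3CA), 4 (GFP against HCRED), 0 (CSC), 2 (BaP), 0 (NNK) and 0 (interaction). Same-numbered samples deviated together (r over 0.1) in 4 of 154 pairs, with a median r of 0.0184. Differently numbered samples were not correlated for reference, and the same samples recur among the pairs. Whether the numbers pair samples is therefore not settled.

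Over all genes, DMSO alone lowered the calls to 3752 (FAT1), 5408 (CDKN2A), 1005 (NRF2), 265 (FGFR1), 287 (NRG1), 1228 (PIK3CA) and 2518 (GFP against HCRED), with fewer samples. The GC and length correction lowered them to 4715 (CSC), 3439 (BaP), 2359 (NNK) and 213 (interaction), control lines alone to 2683 (BaP) and 4452 (NNK), and DESeq2 the interaction to 152, whereas no filter raised NNK to 11531. A replicate left out lowered them to as few as 2008 (NRF2), 1034 (FGFR1), 720 (NRG1) and 133 (interaction). With no filter the median of all genes moved by 0.126, 0.203 and 0.208 on the log2 scale with CSC, BaP and NNK. No other cause was tested.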
